A study of Homo sapiens with 6 samples.

Results

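HERV-L is a family of endogenous retroviruses, the remnants of ancient germline infections that now sit in the genome as fixed repeats. The members described here were every RepeatMasker LTR element annotated as HERVL-int, the internal part of HERV-L, or with a name that begins with MLT2, the long terminal repeats (LTRs) of HERV-L and its relatives. They numbered 35118 of 720177 LTR elements, of which 2337 were HERVL-int and 32781 were MLT2 elements of 12 subfamilies. They were measured in total RNA of 4 lines of atypical teratoid rhabdoid tumor (AT/RT), a childhood brain tumor. The 6 libraries comprised a single one of CHLA 02, a single one of CHLA 05, 2 technical replicates of CHLA 04 and 2 of CHLA 06. A cell line was thus 1 biological sample, and no test between cell lines was possible. The lines came from ATCC, carried no treatment in the labels and were kept in DMEM:F12 with EGF, basic FGF and B-27, and no other kind of cell is compared here. SMARCB1, the chromatin remodelling subunit whose loss defines AT/RT, had 13.5 to 26.2 TPM among transcripts in the 6 libraries. The study describes all 4 lines as lacking SMARCB1 expression. A TPM summed over transcripts does not tell whether the gene or its protein was intact. A short list of neural and AT/RT markers was uneven, with VIM, an intermediate filament gene, at 4629 TPM or more in every library and SOX2, a neural stem cell factor, at 4.03 TPM or less. NES, another neural stem cell marker, had 5.21 to 27.6 TPM, and PAX6, a neural progenitor factor, had 15.8 to 36.9 TPM except in CHLA 06, where it had 0.604 and 0.938 TPM.

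An intact HERV-L copy reads, from 5′ to 3′, as an LTR, an internal part and a second LTR. The LTR carries the promoter and the polyadenylation signal, and the internal part begins with a site where a leucine tRNA primes reverse transcription, which gave the family its L. HERV-L lacks an envelope gene and is among the older families shared by mammals. MLT2A1 and HERVL-int are transcribed in the early human embryo at genome activation, together with the genes switched on by the homeodomain factor DUX4, and later the family is kept silent by KAP1 (TRIM28), H3K9 methyltransferases and the demethylase LSD1 (KDM1A).

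Sequences were read from GRCh38 at the coordinates of the deposited annotation, 5′ to 3′ along the strand of the element. The first, with its first 300 bases, is the MLT2C1 element that had a high and even level in every library, shown as an example of an LTR of the family. All elements were searched for AATCNAATC, the core of the site bound by DUX4, on both strands, and for AATAAA, the polyadenylation signal, on the strand of the element. Neither is in the stretch shown.
MLT2C1 on chromosome 1 (chr1:9152565-9152864, minus strand): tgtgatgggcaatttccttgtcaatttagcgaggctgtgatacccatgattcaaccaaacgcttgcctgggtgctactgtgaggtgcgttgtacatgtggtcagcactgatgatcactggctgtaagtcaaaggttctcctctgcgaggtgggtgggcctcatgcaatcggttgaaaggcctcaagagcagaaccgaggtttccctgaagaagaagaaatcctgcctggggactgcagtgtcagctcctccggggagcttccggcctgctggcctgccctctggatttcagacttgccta

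Across the family the DUX4 core was common in the 2 youngest subfamilies. It was present in 48.5% of 3728 MLT2A1 and in 50.1% of 3845 MLT2A2 elements, but in 11.2% of MLT2B3, 1.97% of HERVL-int and at most 3.33% of any other MLT2 subfamily, beside 1.95% of all LTR elements. Among elements of 350 to 450 bp it was present in 74.1% of 1899 MLT2A1, 65.6% of 813 MLT2A2 and 2.23% of 162975 LTR elements outside the family. The share was 76.9% of 65 MLT2A1 elements of that length with at least 10 reads in a library and 74.4% of 1531 without a read. AATAAA was found in 47.3% of MLT2A1, 70.7% of MLT2A2 and 30.2% of all LTR elements.

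Next come the first 60 bases of the internal part of 4 HERV-L loci whose levels are given below, of which the first 3 had few or no reads in at least 1 cell line and the last had reads in every library. Capitals mark TGGTACCAG, the start of the site complementary to the 3′ end of leucine tRNA, which is the feature that names the family.
HERVL-int of the chromosome 11 locus (chr11:109501885-109501944, minus strand): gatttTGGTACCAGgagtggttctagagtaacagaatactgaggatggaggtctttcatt
HERVL-int of the chromosome 13 locus of CHLA 05 (chr13:109224910-109224969, minus strand): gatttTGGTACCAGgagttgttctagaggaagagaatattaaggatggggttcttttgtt
HERVL-int of the chromosome 3 locus (chr3:22024388-22024447, plus strand): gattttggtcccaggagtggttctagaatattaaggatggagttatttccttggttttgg
HERVL-int of the NF1 locus (chr17:31184019-31184078, plus strand): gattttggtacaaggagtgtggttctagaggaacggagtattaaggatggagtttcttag

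These letters were intact in the chromosome 11 and CHLA 05 loci, not in the chromosome 3 and NF1 loci, and in 13.6% of all HERVL-int elements against 0.058% of MLT2 and 0.565% of all LTR elements. A HERVL-int entry is often a fragment that may lack the start of the internal part. At insertion the LTRs on either side of a provirus are identical, and they diverge with age. Their identity was 79.9% at the chromosome 11 locus, 78.9% at the CHLA 05 locus, 72.8% at the chromosome 3 locus, 86.1% at the chromosome 12 locus and 86.3% at the NF1 locus, by edit distance over the longer LTR, which also counts missing bases. The chromosome 3 locus has LTRs of 459 and 388 bp. Over 37 loci with an LTR of at least 300 bp on either side and at least 10 reads in a library, the identity ranged from 54.1% to 89.6%, with a median of 80.3%. The lowest was between an MLT2A2 element of 353 bp and an MLT2B3 element of 579 bp, so the measure is not one of age alone. How reads that match several copies were assigned is not given in the sources used here.

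Values are TPM of LTR elements, which the authors scaled to the sum of LTR elements and not of all transcripts, and gene values are TPM of transcripts on a scale of their own. A TPM times the element's length falls on whole multiples of the value of 1 read, and between 355302 and 511408 reads per library were recovered in this way. At this depth the value of 1 read was 0.899 to 1.34 TPM for a length of 1000 bp, so a member of the median length of 364 bp rests on few reads unless its TPM is high. Statements on single members were therefore limited to those with at least 10 reads in a library. The libraries were made with a stranded kit. Whether the counting used the strand is not given in the sources used here, so reads of a member and of a gene on the other strand may not be separable.

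The CHLA 02 library stood apart from the others. No gene had over 10 TPM in it and below 1 TPM in CHLA 04 and CHLA 06, whereas CHLA 05 had 65 such genes. Likewise no member had over 30 TPM in CHLA 02 and below 3 TPM in CHLA 04 and CHLA 06, against 12 in CHLA 05. The members over 30 TPM in CHLA 06 and below 3 TPM in CHLA 04 numbered 58, and their level in CHLA 02 was a median of 0.39 times that in CHLA 06, while in CHLA 05 the median was 0.0. The 63 members with the opposite pattern had a median of 0.62 times the CHLA 04 level in CHLA 02 and 0.103 times in CHLA 05. Genes chosen in the same way had medians of 0.58 (271 genes) and 0.354 (314 genes) in CHLA 02. In CHLA 05 the medians of these genes were 0.00793 and 0.452, the last above that of CHLA 02. For members and genes chosen as far apart between CHLA 04 and CHLA 06, the medians of CHLA 02 thus lay between these lines in either direction. The choice leaves much room between the lines, and the CHLA 05 medians for features high in CHLA 04 lay there too. Over all members CHLA 02 was not in between, as it had the highest share of LTR reads, given below. Whether this library holds the cell line of its label alone was not tested, so values given below for CHLA 02 are those of the library so labelled, and counts that depend on it are given with and without it. Fibroblast markers, a check for another cell type, were higher in CHLA 02 and CHLA 06 in their sum, but not each on its own. The summed TPM of COL1A1, COL1A2, DCN and LUM was 409 in CHLA 02, 4.98 and 1.36 in the CHLA 04 replicates, 18.8 in CHLA 05 and 645 and 490 in the CHLA 06 replicates. All 4 had at least 1 TPM in a library, and COL1A1 carried most of the sum. COL1A2 was highest in CHLA 05, with 7.12 TPM, and had 1.36 TPM in CHLA 02 and at most 0.0259 TPM in CHLA 06. Their part in the differences below was not tested. The blood markers PTPRC and CD3E had at most 0.224 TPM.

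**Figure D1:**
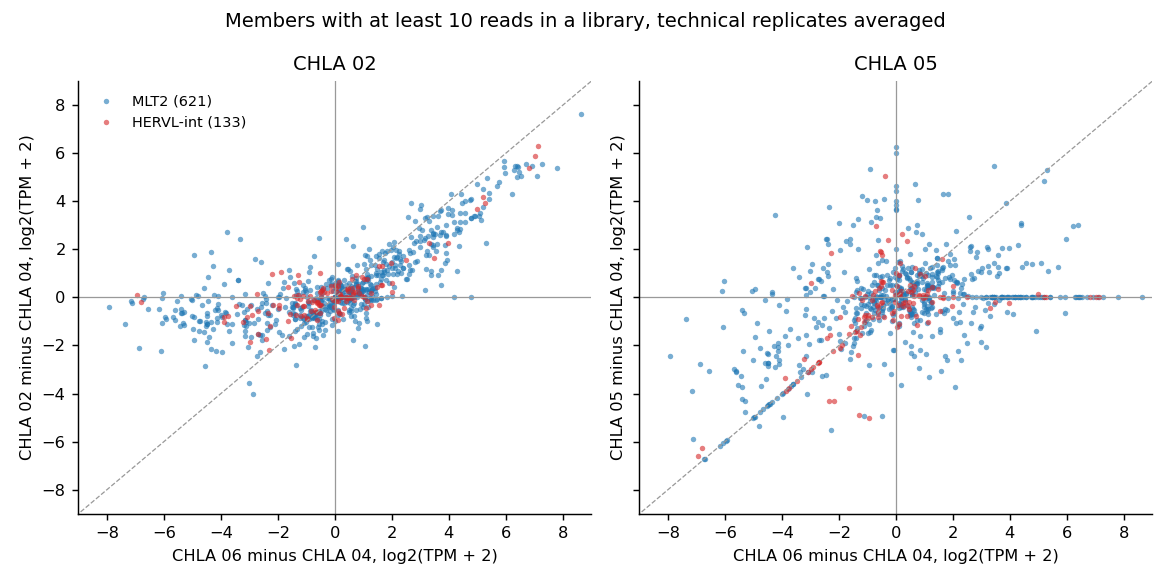
Differences of log2(TPM + 2) for the 754 members with at least 10 reads in a library, with CHLA 06 minus CHLA 04 on the x axis and CHLA 02 (left) or CHLA 05 (right) minus CHLA 04 on the y axis; technical replicates were averaged, each point is a member, and the dashed line marks equal differences. In CHLA 02 the members that were higher in CHLA 06 were raised too and those that were lower in CHLA 06 lay mostly somewhat below the CHLA 04 level, while in CHLA 05 many of the members raised in CHLA 06 lay near 0 on the y axis.

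Summed over the whole family, the share of LTR reads was low and differed little between cell lines. Single members differed far more. Over the 754 members with at least 10 reads in a library, Pearson r of log2(TPM + 2) was 0.878 and 0.931 between technical replicates. Between libraries of different cell lines it ran from -0.109 (CHLA 04 and CHLA 06) to 0.551 (CHLA 02 and CHLA 04). HERVL-int and MLT2 elements made up 5.134% of the annotated LTR bases and took 3.97% of the LTR reads of CHLA 02. In CHLA 04 the share was 3.89% and 3.49% and in CHLA 06 it was 3.61% and 3.69%, beside 3.08% for CHLA 05. Each of these shares lay below the family's share of bases. The 95% Wilson intervals, which cover counting error only, spanned 3.03 to 3.13% in CHLA 05 and 3.44 to 3.54% for the lower CHLA 04 replicate. CHLA 05 was thus the lowest library, and the technical replicates of CHLA 04 differed from each other by more than their counting error. The order changed outside genes. Among elements outside every Ensembl gene, the family took 4.26% of the CHLA 02 reads and 3.997% of the CHLA 05 reads, with means of 4.02% for CHLA 04 and 4.7% for CHLA 06.

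Few members were detected at all. A read in a library was found for 4726 members, or 13.5%, and at least 10 reads for 754, or 2.15%, against a background of 2.76% of all LTR elements. THE1 elements, a younger family of related LTRs, reached 10 reads in 3.81% of 59104 elements and MLT1 elements, an older one, in 2.4% of 236071. The internal elements are longer, with a median of 917 bp against 356 bp for MLT2, and 133 of them (5.69%) reached 10 reads against 621 (1.89%) of the MLT2 elements. Among the MLT2 subfamilies the share ran from 0.748% in MLT2E to 2.28% in MLT2A1.

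HERVL-int had the widest spread of shares in percentage points. It took 1.19% of the LTR reads of CHLA 02, 1.3% and 0.857% of those of CHLA 04, 0.728% of those of CHLA 05 and 1.01% in both replicates of CHLA 06. The gap between the CHLA 04 replicates covered most of the range over the cell lines, and CHLA 05 lay below both of them. This order did not hold among the LTR reads of elements outside genes, of which HERVL-int took 1.203% for CHLA 04, the lowest share, 1.27% for CHLA 02, 1.40% for CHLA 05 and 1.43% for CHLA 06, with technical replicates averaged. The reads were concentrated: between 9 and 19 HERVL-int elements held 50% of the HERVL-int reads of a library, whereas for MLT2 between 108 and 165 elements did so. MLT2A1, the LTR of the youngest copies, took 0.316% in CHLA 02, 0.307% and 0.267% in the CHLA 04 replicates, 0.264% in CHLA 05 and 0.347% and 0.349% in the CHLA 06 replicates. MLT2B1 took 0.41% in CHLA 02, 0.336% and 0.333% in the CHLA 04 replicates, 0.261% in CHLA 05 and 0.402% and 0.385% in the CHLA 06 replicates. Both were highest in CHLA 02 or CHLA 06, and MLT2B1 was lowest in CHLA 05, whereas for MLT2A1 the second CHLA 04 replicate and CHLA 05 had overlapping intervals. MLT2F, with a mean per cell line of 0.147 to 0.155%, and MLT2C1, with 0.137 to 0.155%, differed between cell lines by about the spread of the technical replicates.

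**Figure D2:**
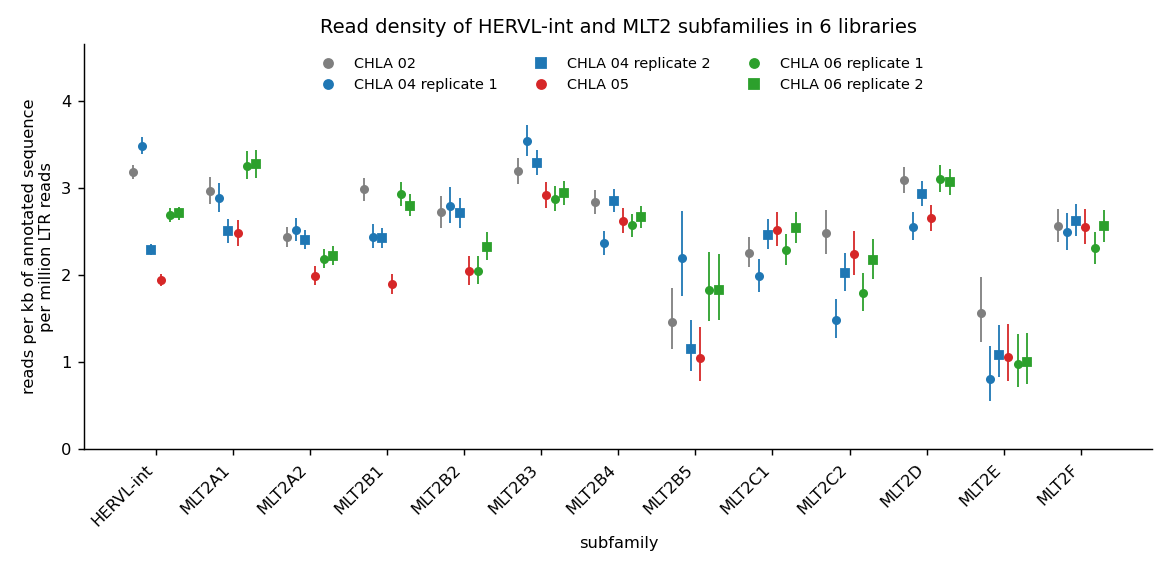
Reads per kb of annotated sequence per 1000000 LTR reads for HERVL-int and the 12 MLT2 subfamilies; each point is a library and the bars are 95% Wilson intervals, which cover counting error only. HERVL-int ran from 1.95 in CHLA 05 to 3.49 in the first CHLA 04 replicate, and MLT2E or MLT2B5 was the lowest subfamily in every library.

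The place of an element in or near a gene went with its detection. Of the 754 members with at least 10 reads, 59 overlapped an exon and 461 (61.1%) lay in an intron, while 80 lay within 10 kb of a gene and 154 (20.4%) farther away. Of all members, 34.0% were intronic and 52.6% were farther than 10 kb from a gene. Orientation differed as well. Among members in genes of 1 direction, 90.5% of the 483 with at least 10 reads ran with the gene, against 28.3% of 9793 without a read. The same held for all LTR elements with at least 10 reads, at 91.8%, so the family did not stand apart in this. Total RNA holds unspliced transcripts, and the reads of an intronic element in the direction of its gene cannot be told apart from those of the intron.

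The member with the highest mean TPM was an MLT2A2 element of 541 bp on chromosome 15 (25046615 to 25047155), in an intron of SNHG14 and in its direction. SNHG14 is the long host transcript of the imprinted Prader-Willi region and holds many small nucleolar RNAs. The element had 446 TPM in CHLA 02, 620 and 645 in the CHLA 04 replicates, 221 in CHLA 05 and 144 and 170 in the CHLA 06 replicates. SNHG14 itself had 433 TPM in CHLA 02, 739 and 582 in the CHLA 04 replicates, 242 in CHLA 05 and 105 and 111 in the CHLA 06 replicates, the same order of cell lines. The other LTR elements within 50 kb of it, only 3, had a mean of 0.434 TPM, so the element stood far above these few neighbours. An MLT2B3 element in an intron of PBX3, a homeobox cofactor gene, on chromosome 9 (125785171 to 125785740) had 509 TPM in CHLA 02, 764 and 481 in the CHLA 04 replicates, 71.4 in CHLA 05 and 48.5 and 69.0 in the CHLA 06 replicates. It too ran in the order of its gene, whose TPM was 381, 627 and 440, 79.7, and 40.9 and 49.3 in the same libraries.

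An MLT2C1 element on chromosome 1 (9152477 to 9152864), outside genes, was the most even of the abundant members. It had 171 TPM in CHLA 02, 189 and 218 in the CHLA 04 replicates, 278 in CHLA 05 and 314 and 329 in the CHLA 06 replicates, against a mean of 2.73 TPM for the LTR elements around it. All libraries lay within a factor below 2 of each other. An MLT2F element in an intron of SHTN1, a gene of axon polarity, on chromosome 10 (116888350 to 116888923) had 170, 156, 136 and 163 TPM in CHLA 02, the CHLA 04 replicates and CHLA 05, and 71.4 and 71.8 TPM in CHLA 06. An MLT2B3 element on chromosome 8 (211780 to 212125), within 10 kb of a gene, also had reads everywhere, from 73.3 TPM in a CHLA 04 replicate to 290 TPM in a CHLA 06 replicate. Taken over the members with at least 10 reads in a library, 98 had at least 10 reads in every library, and 34 of these were HERVL-int. Reads in every library did not mean an even level, as 27 of the 98 lay within 2-fold and 14 were past 4-fold. HERVL-int elements are longer, with a median of 917 bp against 356 bp for MLT2, and so have more room to reach 10 reads. The share of all LTR elements with 10 reads in every library is not given here.

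Other abundant MLT2 elements were present in some cell lines and absent from others. An MLT2B1 element in an intron of ANK3, the ankyrin-G gene of the axon initial segment, on chromosome 10 (60412145 to 60412614) had 393 TPM in CHLA 02 and 898 and 671 TPM in CHLA 06, and was at 0 in CHLA 04 and CHLA 05. It runs against ANK3, and the gene had 353 TPM in CHLA 02, 786 and 562 TPM in CHLA 06 and at most 3.19 TPM elsewhere. An MLT2D element in an intron of ADGRB3, an adhesion receptor of synapses, on chromosome 6 (68672670 to 68673033) had the reverse pattern, with 368 TPM in CHLA 02, 473 and 494 in the CHLA 04 replicates, 87.6 in CHLA 05 and 0 in the CHLA 06 replicates. An MLT2B3 element in an intron of NXPH1, a neurexin ligand, on chromosome 7 (8566340 to 8566918) had 257 TPM in CHLA 02, 270 and 297 in the CHLA 04 replicates, 17.1 in CHLA 05 and 0 in the CHLA 06 replicates. In each of these 3 cases the CHLA 02 library had reads wherever either CHLA 04 or CHLA 06 had them.

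An MLT2D element within 10 kb of a gene on chromosome 7 (130935136 to 130935401) had 243 TPM in CHLA 02, 115 and 193 in the CHLA 04 replicates, 16.5 in CHLA 05 and 505 and 436 in the CHLA 06 replicates. An MLT2B3 element in an exon of the pseudogene RPL23AP82 on chromosome 22 (50800772 to 50800998) had 184 TPM in CHLA 02, 17.7 and 75.3 in the CHLA 04 replicates, 38.7 in CHLA 05 and 465 and 435 in the CHLA 06 replicates. An MLT2B1 element outside genes on chromosome 3 (178951304 to 178951761) was higher in CHLA 04, with 324 and 287 TPM, than in CHLA 02 (184 TPM), CHLA 05 (81.6 TPM) and CHLA 06 (85.0 and 132 TPM).

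**Figure D3:**
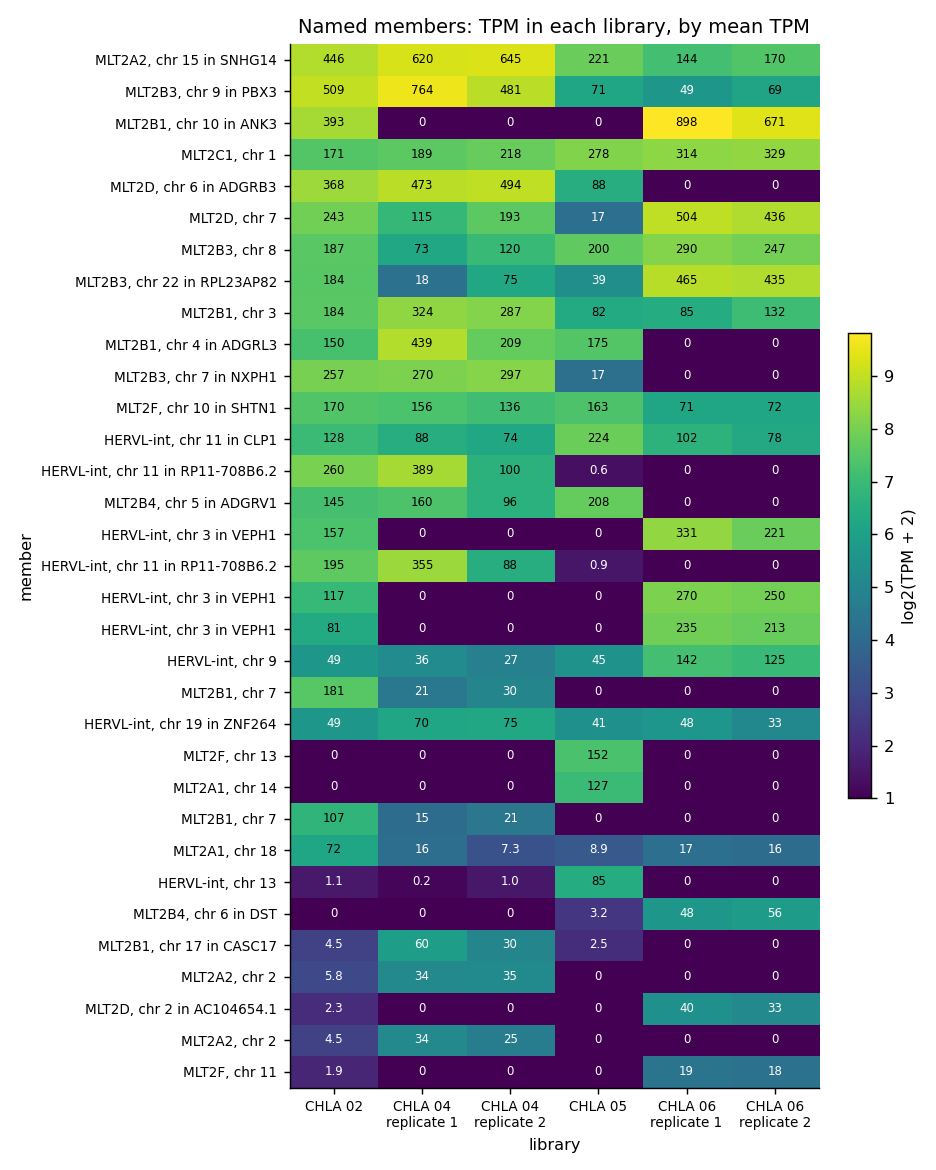
TPM of named members (rows, by mean TPM, with the chromosome and the first host gene) in each library (columns); the colour is log2(TPM + 2) and the printed figures are TPM. The MLT2A2 element in SNHG14 and the MLT2C1 element on chromosome 1 had reads in every library, while the ANK3, ADGRB3, NXPH1 and VEPH1 elements were at 0 in at least 1 cell line.

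Some whole HERV-L loci had similar TPM over LTR, internal part and LTR. Whether their transcripts start in the LTR was not tested. The highest of these, on chromosome 11 (109495935 to 109503010, minus strand), lies in an intron of the long noncoding RNA gene RP11-708B6.2 and in its direction. Its 5′ LTR had 234 TPM in CHLA 02 and 441 and 116 TPM in CHLA 04, its internal elements 195 and 260 TPM in CHLA 02, 355 and 389 in the first and 88.2 and 100 in the second CHLA 04 replicate, and its 3′ LTR 202, 354 and 69.5 TPM. In CHLA 05 the locus had 5 reads and in CHLA 06 none. The other LTR elements within 50 kb of its internal elements had 123 TPM in CHLA 02 and 131 and 53.9 TPM in the CHLA 04 replicates. Reads were thus not limited to the locus, and those of the intron cannot be told apart from its own. The 2 libraries of CHLA 04 are technical replicates, and yet over the whole locus they had 367 and 91.6 TPM, from 1782 and 661 reads. The host gene differed in the same way, with 29.6 and 6.64 TPM, beside 7.87 TPM in CHLA 02 and 0 in CHLA 05 and CHLA 06. This difference between technical replicates is larger than counting error allows for, and its cause was not tested. Of the 754 members, 31 differed 4-fold or more between the CHLA 04 replicates and 14 between those of CHLA 06.

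A locus of 6530 bp on chromosome 13 (109218916 to 109225445, minus strand), farther than 10 kb from any gene, had reads almost only in CHLA 05. Its internal element of 5641 bp had 85.4 TPM there, from 438 reads, its 5′ LTR 148 TPM and its 3′ LTR 13.3 TPM. All other libraries had between 0 and 6 reads over the locus. Further members of that neighbourhood had no read in any other library. An MLT2F element (109250005 to 109250344) had 152 TPM, at least 12.9-fold above the level that 3 reads would have had elsewhere. An MLT2A2 element (109188514 to 109188811) had 48.0 TPM, at least 3.57-fold above that level. The MLT2A2 element lies in introns of MYO16, against its direction, and of MYO16-AS1, with its direction. MYO16-AS1 had 0 TPM in every library. The other LTR elements within 50 kb of the internal element had 306 TPM in CHLA 05, above the element itself, so reads there were not limited to HERV-L.

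Loci on chromosomes 3 and 12 were present in CHLA 02 and CHLA 06 alone. The chromosome 3 locus (22023929 to 22030256, plus strand) lies in an intron of ZNF385D, a zinc finger gene, and against its direction. It had 31.2 TPM in CHLA 02 and 63.2 and 77.9 TPM in CHLA 06, and no read in CHLA 04 and CHLA 05. ZNF385D had 42.1, 76.6 and 60.1 TPM in the libraries with reads and at most 0.256 TPM in the others. The chromosome 12 locus (46860882 to 46867418, minus strand) lies against the direction of the noncoding gene RP11-96H19.1 and had 24.0 TPM in CHLA 02, 63.0 and 59.99 TPM in CHLA 06, a lone read in CHLA 05 and none in CHLA 04. That gene had at most 4.74 TPM in any library.

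In an intron of VEPH1, a gene for a pleckstrin homology protein, 3 HERVL-int elements on chromosome 3 (157394741 to 157395707, 157397732 to 157398353 and 157398650 to 157398909) followed the gene. They had 81.1, 117 and 157 TPM in CHLA 02, 235, 270 and 331 TPM in the first CHLA 06 replicate, 213, 250 and 221 TPM in the second, and 0 in CHLA 04 and CHLA 05. VEPH1 had 346 TPM in CHLA 02, 489 and 469 in CHLA 06 and at most 3.05 TPM in the other libraries.

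Other loci were present in every cell line. The locus in an intron of NF1, the neurofibromin gene, on chromosome 17 (31183587 to 31189019, plus strand) had 37.2 TPM in CHLA 02, 39.8 and 34.8 in the CHLA 04 replicates, 32.6 in CHLA 05 and 40.1 and 31.0 in the CHLA 06 replicates, a range within the spread of the technical replicates. The chromosome 9 locus (112373201 to 112376925, minus strand), within 10 kb of a gene, had 44.8 TPM in CHLA 02, 33.7 and 25.1 in the CHLA 04 replicates, 42.7 in CHLA 05 and 132 and 113 in the CHLA 06 replicates. Its surroundings had a mean of 0.899 TPM. A HERVL-int element on chromosome 11 (57650629 to 57651452), in an exon of AP000662.4 and an intron of the RNA kinase gene CLP1, had 128 TPM in CHLA 02, 87.5 and 74.2 in the CHLA 04 replicates, 224 in CHLA 05 and 102 and 77.9 in the CHLA 06 replicates. AP000662.4 was highest in CHLA 05 as well, with 17.1 TPM. A HERVL-int element in an intron of ZNF264 on chromosome 19 (57200015 to 57200337) had between 32.7 and 75.2 TPM. On chromosome 18 (69972817 to 69978822) a locus far from genes had 51.5 TPM in CHLA 02, 35.5 and 35.2 in the CHLA 04 replicates, 19.4 in CHLA 05 and 28.5 and 41.3 in the CHLA 06 replicates.

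**Figure D4:**
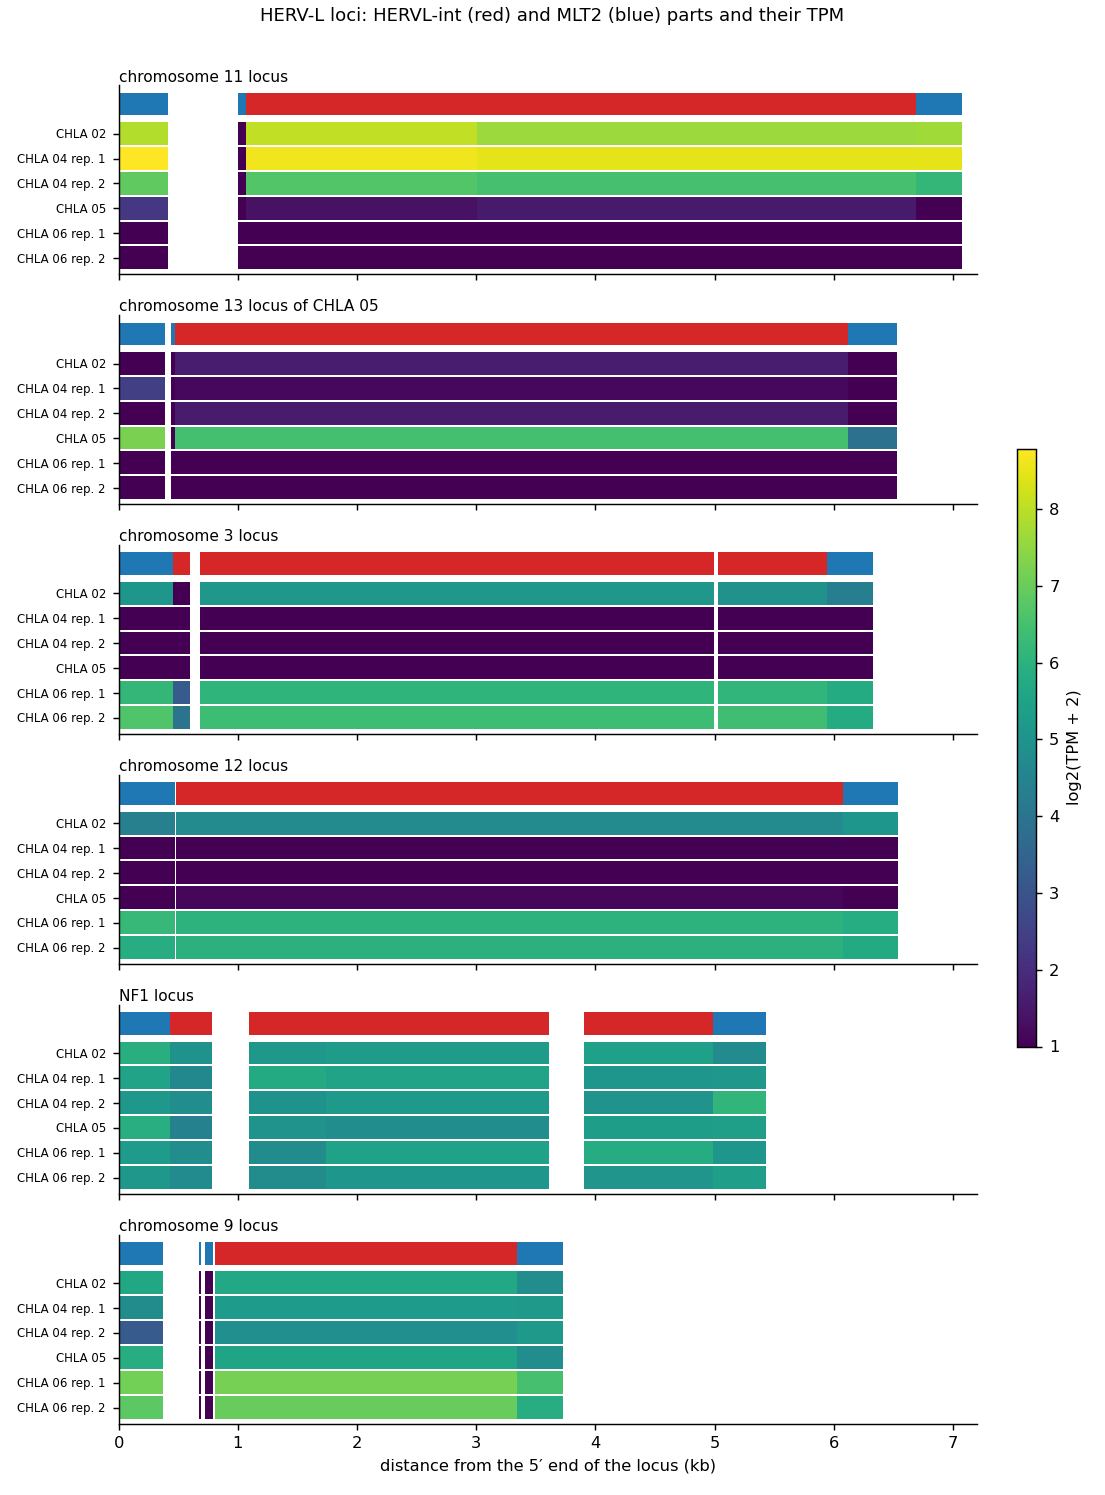
HERV-L loci by distance in kb from the 5′ end, with HERVL-int parts in red and MLT2 parts in blue above a row for each library; the colour of a row is log2(TPM + 2) of the part. Within a library the LTRs and internal parts of most loci had similar levels, other than the CHLA 05 locus, and the chromosome 3 and 12 loci had reads in CHLA 02 and CHLA 06, the chromosome 13 locus of CHLA 05 in CHLA 05, and the NF1 locus in all.

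Loci with LTRs on both sides most often reached 10 reads. MLT2 elements within 500 bp on the same strand flanked 457 HERVL-int loci on both sides, 672 on 1 side and 403 on neither. At least 10 reads were found at 46 (10.1%), 48 (7.14%) and 12 (2.98%) of them. Their internal parts had median lengths of 5365, 1710 and 273 bp, so the longer loci had more room to gather reads. The reads of a locus include those of its LTRs. The density given next divides them by internal bases alone, which raises it for flanked loci. Per kb of internal sequence and 1000000 LTR reads, the loci flanked on both sides had 4.66 reads in CHLA 02 and 5.38 and 2.75 in the CHLA 04 replicates. They had 2.31 in CHLA 05 and 3.69 and 3.57 in the CHLA 06 replicates. Loci flanked on 1 side had between 2.19 and 2.53 in the 6 libraries, a narrower range. Loci flanked on neither side, which hold the fewest reads, had 1.41 in CHLA 05 and between 2.8 and 3.32 in the other libraries. These values were above those of the loci flanked on 1 side in all libraries but CHLA 05. Because the density is not measured alike with and without LTRs, no conclusion on the number of LTRs is drawn from it. MLT2A1 elements beside a HERVL-int element reached 10 reads in 2.02% of 1336 cases, and those elsewhere in 2.42% of 2392, so the share was not higher beside an internal part.

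Members that set 1 cell line apart were then counted. A member was called higher in a cell line if its lowest log2(TPM + 2) there lay at least 2 units, or 4-fold, above the highest value in the other cell lines, with at least 10 reads in each of its own libraries, and lower by the inverse rule. The counts are descriptions without a test, and members of a locus are not independent. In CHLA 05, 35 of the 754 members were called higher (4.64%), beside a background of 4.45% of all LTR elements with 10 reads, and 9 were called lower (1.19%), beside 0.469%. In CHLA 06, 6 were higher (0.796%, background 1.09%) and 17 lower (2.25%, background 2.64%). In CHLA 04, 3 were higher (0.398%, background 0.257%) and none lower (background 0.464%). In CHLA 02, 3 were higher (0.398%, background 0.0705%) and none lower (background 0.0%). Apart from the counts of 3 and of 9, which rest on few places, the shares were near those of LTR elements at large. The 9 lower members of CHLA 05 lay at 5 places.

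Without CHLA 02 the counts of CHLA 04 and CHLA 06 rose. CHLA 04 then had 60 higher members of 731 (8.21%, background 5.47%), at 45 places more than 50 kb apart, and 3 lower ones (0.41%, background 0.816%). CHLA 06 had 77 higher members (10.5%, background 8.8%), at 63 places, and 23 lower ones (3.15%, background 3.67%). CHLA 05 was as before, with 36 higher (4.92%, background 4.76%) and 9 lower (1.23%, background 0.516%). Each of the sets of CHLA 04 and CHLA 06 held 10 HERVL-int elements. In CHLA 04 they included the chromosome 11 locus and loci on chromosome 2 (75392747 to 75396731) and chromosome 17 (70819291 to 70823505), and in CHLA 06 the chromosome 3 and 12 loci, the VEPH1 elements and 3 elements in an intron of ARHGAP29.

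The members with the widest gap in CHLA 05 were the internal element and the MLT2F element of the chromosome 13 neighbourhood and an MLT2A1 element outside genes on chromosome 14 (43030242 to 43030674). The last had 127 TPM in CHLA 05, at least 13.7-fold above the level of 3 reads, and was at 0 in all other libraries. Of the 35 higher members, 19 lay in genes, 18 of them in the direction of a host gene, and for 12 of these the host gene itself was higher in CHLA 05 by 4-fold. Examples are elements in introns of ERBB4, a neuregulin receptor gene with 76.9 TPM in CHLA 05 and at most 5.28 TPM elsewhere, CHSY3, a chondroitin synthase gene (35.8 and at most 1.47 TPM), and BMPR1B, a receptor gene for bone morphogenetic proteins (64.1 and at most 2.67 TPM), and an MLT2B4 element in an exon of SEMA3D, a semaphorin gene, with 135 TPM against at most 13.3 TPM elsewhere. Some of these elements rest on few reads. An MLT2B1 element in ERBB4 had 10 reads in CHLA 05 and the BMPR1B element had 11. They were at least 2.74-fold and 3.02-fold above the level of 3 reads elsewhere, bounds below the 4-fold of the rule. Outside genes, 6 of the 35 lay close together on chromosome 5 between 34285707 and 34383052, a group chosen after its values were seen. The highest of them, an MLT2B3 element (34285707 to 34286273), had 413 TPM in CHLA 05, 38.5 in CHLA 02, 47.1 and 25.4 in CHLA 04 and 0 in CHLA 06, and the LTR elements around it had 100.8 TPM in CHLA 05.

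Of the 9 members lower in CHLA 05, 8 lay in genes in the same direction, and for 7 the gene was lower by 4-fold. The one whose gene was not, picked after its values were seen, was a HERVL-int element in an intron of the noncoding gene RP1-78O14.1 on chromosome 12 (79497710 to 79499637), with 48.4 TPM in CHLA 02, 45.7 and 74.1 in the CHLA 04 replicates, 1.14 in CHLA 05 and 11.7 and 11.9 in the CHLA 06 replicates. RP1-78O14.1 had 5.27 TPM in CHLA 02, 2.86 and 5.446 in the CHLA 04 replicates, 0 in CHLA 05 and 0 and 0.129 in the CHLA 06 replicates, and so was low in CHLA 06 as well. In CHLA 06, 14 of the 17 lower members lay in genes in the same direction, and for 12 the gene was lower by 4-fold. The widest gaps were those of an MLT2B1 element in an intron of ADGRL3, a latrophilin gene, on chromosome 4 (61330173 to 61330555), with 150 TPM in CHLA 02, 439 and 209 in the CHLA 04 replicates, 175 in CHLA 05 and 0 in the CHLA 06 replicates, and of an MLT2B4 element in an intron of ADGRV1, a large adhesion receptor gene, on chromosome 5 (90830721 to 90831253), with 145, 160 and 96.1, 208, and 0 TPM. They were at least 18.7-fold and 16.7-fold above the level of 3 reads in CHLA 06. ADGRL3 had at most 0.294 TPM and ADGRV1 at most 0.664 TPM in CHLA 06, against at least 121 and 315 TPM elsewhere.

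Of the 6 members higher in CHLA 06, 3 lay in a gene of their direction, and none of these genes passed 4-fold. An MLT2B4 element in an intron of DST, the dystonin gene, on chromosome 6 (56923502 to 56923841) had 48.2 and 56.4 TPM in CHLA 06, 3.23 in CHLA 05 and 0 elsewhere, while DST had 192 to 868 TPM in all libraries. An MLT2D element on chromosome 2 (41887806 to 41888235) had 40.5 and 33.4 TPM in CHLA 06 and 2.31 TPM in CHLA 02, and an MLT2F element on chromosome 11 (20171175 to 20171710) had 19.11 and 17.9 TPM in CHLA 06 and 1.85 TPM in CHLA 02, both with no read elsewhere. The most abundant of the 6, picked after its values were seen, was the MLT2A1 element near LSAMP, a neuronal adhesion gene, on chromosome 3 (115792783 to 115793165). It had 500 and 390 TPM in CHLA 06, from 187 and 156 reads, 80.4 TPM in CHLA 02 and no read in CHLA 04 and CHLA 05. LSAMP had at most 0.0703 TPM in CHLA 06 and 30.9 TPM in CHLA 05. The other LTR elements within 50 kb had 47.2 and 37.0 TPM in CHLA 06, so the element stood above a neighbourhood that had reads in the same cell lines.

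In CHLA 04 the higher members were an MLT2B1 element in an intron of the noncoding gene CASC17 on chromosome 17 (71122868 to 71123313), with 59.9 and 30.2 TPM against at most 4.45 TPM elsewhere, and MLT2A2 elements outside genes on chromosome 2 at 75269523 to 75270039 (33.6 and 34.8 TPM) and 75396732 to 75397169 (33.5 and 24.6 TPM). In CHLA 02 they were MLT2B1 elements outside genes on chromosome 7 at 37618195 to 37618578 (181 TPM, against 20.9 and 30.4 TPM in CHLA 04) and 37519174 to 37519609 (107 TPM, against 15.3 and 20.6 TPM), and the 3′ LTR of the chromosome 18 locus at 69972817 to 69973063 (72.4 TPM, against 7.28 to 16.6 TPM in the other libraries). These rest on 1 library of CHLA 02.

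Compared with their surroundings, the members with at least 10 reads had a median of 21.5 TPM for MLT2 and 10.4 TPM for HERVL-int, beside medians of 5.95 and 4.59 TPM for other LTR elements within 50 kb. The members were chosen by their own reads and the surrounding elements were not, and 10 reads on a short MLT2 element already make a high TPM, so this difference is in part built into the choice. Ratios were computed with 2 TPM added to both. The ratio was 150 for the MLT2A2 element in SNHG14, which had only 3 other LTR elements within 50 kb. It was 59.2 for the HERVL-int element in an exon of AP000662.4 and an intron of CLP1, and 51.9 for the MLT2C1 element on chromosome 1. The MLT2B3 element on chromosome 8 had 30.6 and the HERVL-int element of the chromosome 9 locus 22.9. By contrast the ratios were 1.56 for the ANK3 element, 1.76 for the NXPH1 element and 0.302 for the internal element of the chromosome 13 locus of CHLA 05, whose neighbourhoods had reads as well.

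**Figure D5:**
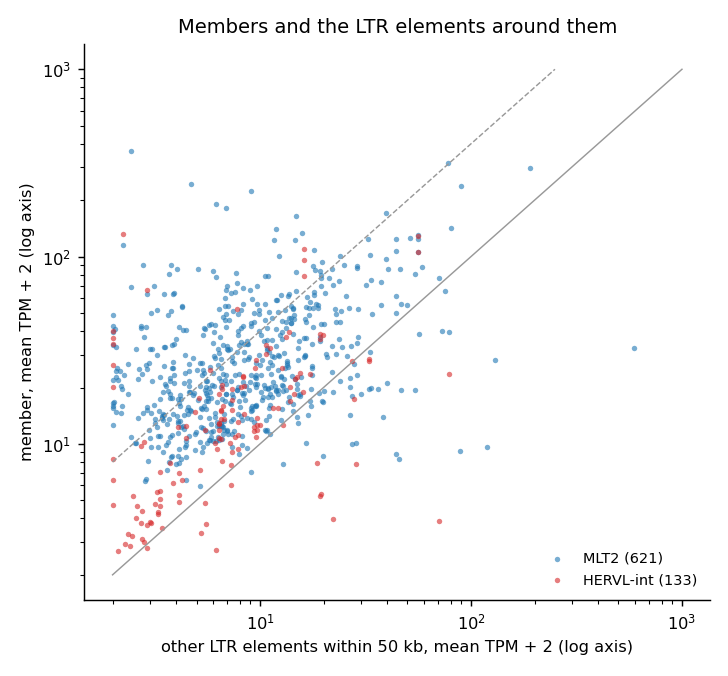
Mean TPM + 2 of the 754 members with at least 10 reads in a library (y axis, log) against that of other LTR elements within 50 kb (x axis, log); each point is a member, the solid line marks equal levels and the dashed line a ratio of 4. MLT2 elements lay mostly above the solid line, and the MLT2A2 element in SNHG14 lay farthest above it.

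Genes of the embryonic programme around DUX4 had few reads. Of 27 genes around DUX4, 26 were found in the gene files, 22 of them were below 1 TPM in every library and 6 were at 0 throughout. The 6 included DUXA, LEUTX, TPRX1, ARGFX and DPPA3, genes of the early embryo. DUX4 had 2.15 TPM in CHLA 05 and at most 0.462 TPM elsewhere, although its copies lie in near-identical repeats and its value is uncertain for that reason. ZSCAN4, an embryonic zinc finger gene, had 2.35 TPM in the second replicate of CHLA 06 and 0.246 TPM in the first, a difference within one cell line. ZNF296, a zinc finger gene, had 2.45 TPM in CHLA 02, 1.83 and 0.599 in the CHLA 04 replicates, 0.74 in CHLA 05 and 2.81 and 4.28 in the CHLA 06 replicates. The highest of the list was CCNA1, a cyclin gene, with 17.4 TPM in CHLA 02, 18.1 and 25.6 in the CHLA 04 replicates, 12.98 in CHLA 05 and 52.5 and 47.6 in the CHLA 06 replicates.

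Genes known to silence HERV-L or its mouse relative MERVL were present throughout. All 26 on the list had at least 10 TPM in every library. TRIM28, the corepressor KAP1, had 234 TPM in CHLA 02, 462 and 419 in the CHLA 04 replicates, 317 in CHLA 05 and 296 and 269 in the CHLA 06 replicates. SETDB1, its H3K9 methyltransferase, had between 42.7 and 87.6 TPM, and KDM1A, the demethylase LSD1, between 122 and 185 TPM. DNMT1, the maintenance DNA methyltransferase, was higher in CHLA 04 (340 and 348 TPM) and CHLA 05 (305 TPM) than in CHLA 02 (170 TPM) and CHLA 06 (155 and 197 TPM). By the same gap in log2(TPM + 2), none of the genes of either list set 1 cell line apart by 4-fold, beside a background of 4.34% of 16343 genes above 1 TPM in a library. With 2 TPM added, the 22 genes below 1 TPM could not pass this gap, and DUX4 did not pass it although its TPM in CHLA 05 was over 4-fold that in any other library.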

How the data were processed

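Total RNA of 4 AT/RT cell lines was sequenced from stranded libraries with paired reads of 125 bp, as 6 libraries with 1 biological sample per cell line. According to the submitters' processing notes and the study's methods, reads were demultiplexed with CASAVA 1.8.2, checked with FastQC, trimmed with Trimmomatic and mapped to GRCh38 with the CLCbio Genomics Workbench under default settings, in separate mappings to Ensembl release 82 transcripts and to RepeatMasker LTR elements. The deposited values are TPM, which the authors scaled within each set of features, with 2 decimals for LTR elements. Other versions are not given in the sources used here.

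Here reads were recovered as TPM times length divided by the step of 1 read, which gave whole numbers for at least 99.3% of the values checked. On simulated data the recovery was exact for 100% of values, and elements changed 16-fold were called in 99% of cases or more. That change is larger than the 4-fold of the calls, so this share is not the sensitivity of the calls reported here. How often changes near 4-fold, or with the spread seen between technical replicates, would be called was not tested. Gene TPM is the sum over transcripts. Depth was 355302 to 511408 LTR reads per library, and Wilson intervals at the 95% level cover counting error only. Calls used log2(TPM + 2), a gap of 2 between the lowest and the highest library and a minimum of 10 reads, and no test was made. Place in genes used the spans and exons of the deposited transcript coordinates. Members named are the 8 HERVL-int and 12 MLT2 elements with the highest mean TPM, and for each cell line the 3 with the widest gap above and the 2 below; parts of the loci of named members, the NF1, chromosome 3 and chromosome 12 loci and other members so marked were added after their values were seen. A locus, a marker gene and the sequences of some named elements are not reported here. The members and lists were chosen with earlier results of these data known. Sequences were read from the GRCh38 genome and compared with edlib 1.3.9.post1, in Python 3.11.15. Alternatives were other thresholds, pseudocounts, normalizations and left-out libraries, and leaving out CHLA 02 was chosen after seeing the data.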

Additional observations from a re-analysis of the deposited data

How the results depend on the processing

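No paired analysis was possible because no result came from a test and the shared numbers mark technical replicates. Depth limits single members: 754 had 10 reads, 1305 had 5 reads, 4726 had 1 read, 1522 exceeded 10 TPM and 4531 exceeded 1 TPM, and leaving out a library gave 691 to 747. With 1 biological sample per cell line, differences between cell lines have no replicate check.

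The family's share of LTR reads (in the order of CHLA 02, 04, 05 and 06) was 3.413, 3.148, 2.811 and 3.311% of summed TPM, 3.562, 3.297, 2.971 and 3.43% without the top member of each subfamily, and 4.258, 4.022, 3.997 and 4.702% outside genes. With elements of at least 200 bp it was 4.057, 3.137 and 3.732% in CHLA 02, CHLA 05 and CHLA 06. For HERVL-int, summed TPM gave 0.3002, 0.263, 0.1908 and 0.2913%, which counts each element by level and not by length. Elements of at least 200 bp gave 1.235, 0.7552 and 1.049%, and those outside genes 1.273, 1.397 and 1.425%, in CHLA 02, CHLA 05 and CHLA 06, beside 1.203% in CHLA 04, and CHLA 02 without the top member gave 1.036%. Outside genes CHLA 04, not CHLA 05, was thus the lowest for HERVL-int; the cause was not tested.

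Members higher (same order) numbered 40, 11, 136 and 36 with no minimum of reads, 12, 17, 59 and 52 at 2-fold and 0, 0, 18 and 2 at 8-fold. At least 20 reads gave 0 in CHLA 04, 16 in CHLA 05 and 1 in CHLA 06, at least 5 reads gave 11 in CHLA 06, and means of technical replicates gave 10 in CHLA 06. Leaving out CHLA 02, chosen after seeing the data, gave 60 in CHLA 04 and 77 in CHLA 06. In CHLA 06 lower members (17) outnumbered higher ones (6), but not without CHLA 02 (23 and 77) or at 2-fold (26 and 52). Members lower (CHLA 04, 05 and 06) numbered 14, 18 and 51 with no minimum and 5, 15 and 26 at 2-fold, with 5 in CHLA 05 at 8-fold. At least 5 reads gave 6 in CHLA 04 and 29 in CHLA 06, at least 20 reads gave 9 in CHLA 06, means gave 2 in CHLA 04, and leaving out CHLA 02 gave 3 in CHLA 04. Leaving out 1 technical replicate, higher members ranged from 3 to 6 in CHLA 02 and in CHLA 04, and from 6 to 14 in CHLA 06, and lower members from 0 to 3 in CHLA 04. CHLA 04 without either replicate raised the CHLA 02 count to 5 or 6, and CHLA 06 without either raised its own to 13 or 14.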
